A study of Mus musculus with 3 samples.

Results

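The genes described here encode the nuclear subunits of the mitochondrial respiratory chain and of ATP synthase. They were chosen by symbol alone: Nduf genes with a numbered subunit letter (complex I), Sdha to Sdhd (complex II), Uqcr genes (complex III), Cox4 to Cox8 genes without Cox6a2 (complex IV) and Atp5 genes (complex V). Of 19505 genes with a symbol on the array, 83 matched: 37 of complex I, 4 of complex II, 8 of complex III, 17 of complex IV and 17 of complex V. Each was measured by 1 probe set. A gene counts here as above background where its mean over the 3 arrays reached a log2 level of 5.28, the value that 95% of 1412 vomeronasal and olfactory receptor genes stay under; these genes are normally silent in blood cells. In all, 77 of the 83 passed, as did 10671 genes of the whole array. The 6 that did not were Cox4i2, Cox6b2, Cox7b2, Cox8b, Cox8c and Ndufa4l2. The subunits encoded by mitochondrial DNA are not analysed here.

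Plasmacytoid dendritic cells, known for making type I interferon, were cultured from the marrow of wild-type male BALB/c mice aged 4 to 5 weeks. Flt3 ligand (100 ng/mL, 6 to 9 days) drove their growth, CpG DNA, which TLR9 senses, matured them, and sorting followed. The 3 groups are a control, cells given Astragaloside IV (a plant saponin) and cells given Oxymatrine (a plant alkaloid), each compound for 12 h before 1 h with the chemokine CCL21, in a study of how these compounds reduce migration. Doses are not in the labels, nor is it stated that the control had CCL21 or vehicle, and the effect of a compound and that of the CCL21 step therefore cannot be told apart. There is 1 array in each group and nothing to test with: no value has a replicate error, differences are described by size, and a gene is counted as past the threshold at 1.5-fold, a log2 difference of 0.585.

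In the respiratory chain, complex I takes electrons from NADH and complex II from succinate, both pass them to ubiquinone, and complexes III and IV carry them through cytochrome c to oxygen. Complexes I, III and IV pump protons across the inner mitochondrial membrane, and ATP synthase, complex V, uses the gradient to make ATP. In plasmacytoid dendritic cells oxidative phosphorylation is known to respond to TLR9 ligands and type I interferon. Nuclear genes for these subunits often carry binding sites for the transcription factors NRF1 and GABP near their start.

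Pearson's r was about 0.989 for each pair of arrays over all 28846 probe sets, which are not replicates. Of 13 plasmacytoid dendritic cell markers measured, 11 were above background, and Pacsin1 and Ptprf were not. Tcf4 had a log2 value of 14.37 on every array, and Siglech had 8.99, 8.99 and 9.02 (control, Astragaloside IV, Oxymatrine). Other markers were less even: in that order Spib was at 8.03, 8.03 and 7.55 and Ccr9 at 9.46, 9.20 and 9.15. Ly6d was at 6.89, 6.59 and 6.59. Of the 11, the Oxymatrine array had 8 lower than control, 2 higher and 1 equal, with a median difference of -0.02. The Astragaloside IV array had 6 lower, 0 higher and 5 equal, with a median difference of -0.09. Markers of other cells were present too. For monocytes and macrophages 6 of 6 passed the background level, as did 4 of 6 for conventional dendritic cells type 2, 6 of 8 for type 1 (not Xcr1 or Clec9a), 2 of 6 for neutrophils (not S100a8, S100a9, Elane or Mpo), 2 of 6 for T and NK cells, 1 of 3 for B cells and 1 of 2 for the erythroid list. Fewer cells of a type and less RNA per cell cannot be told apart in these bulk samples. RMA on 3 arrays gave many exact ties: 51.6% of genes above background and 33 of the 77 members (42.9%) shared a value between 2 or more arrays. The treated arrays alone were tied in 12 of the 77 members, or 15.6%, against 13.1% of genes above background.

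A few promoters show how the regulatory letters lie in genes at the ends of the measured range and in Ndufb4, which is not at an end. Sdha and Ndufb4 each hold 3 NRF1 motifs, but Sdha had the largest difference of all members above background and Ndufb4 a small one. Among members above background Atp5pb was the lowest with Astragaloside IV and Ndufa3 the highest with Oxymatrine, and neither window holds an NRF1 motif. The lines give the 250 bases before the start of each gene, 5′ to 3′ on the gene's strand, from RefSeq's GRCm38.p6 promoters, with capitals marking the letters GCGCA, any base and GCGC (NRF1), CCGGAAG (ETS factors such as GABP), GGGCGG (Sp1) and AAGATGGC (YY1) found on either strand.
Sdha, chr13:74350241-74350490, minus strand: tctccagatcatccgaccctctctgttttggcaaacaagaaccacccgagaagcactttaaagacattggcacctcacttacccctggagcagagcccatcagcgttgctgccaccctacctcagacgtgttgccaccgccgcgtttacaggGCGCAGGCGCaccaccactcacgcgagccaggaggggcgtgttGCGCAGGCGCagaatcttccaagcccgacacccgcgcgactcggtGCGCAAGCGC
Ndufb4, chr16:37654369-37654618, minus strand: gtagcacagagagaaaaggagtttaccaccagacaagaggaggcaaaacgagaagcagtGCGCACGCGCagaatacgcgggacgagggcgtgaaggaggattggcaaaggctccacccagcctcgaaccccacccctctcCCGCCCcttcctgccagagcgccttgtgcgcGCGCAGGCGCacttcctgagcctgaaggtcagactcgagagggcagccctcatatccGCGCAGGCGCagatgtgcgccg
Atp5pb, chr3:105959264-105959513, minus strand: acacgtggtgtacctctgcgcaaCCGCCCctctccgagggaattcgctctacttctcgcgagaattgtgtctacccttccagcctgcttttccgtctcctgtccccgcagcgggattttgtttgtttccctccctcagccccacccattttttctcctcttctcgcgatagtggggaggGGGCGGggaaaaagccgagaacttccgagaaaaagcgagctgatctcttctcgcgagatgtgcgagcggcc
Ndufa3, chr7:3617123-3617372, plus strand: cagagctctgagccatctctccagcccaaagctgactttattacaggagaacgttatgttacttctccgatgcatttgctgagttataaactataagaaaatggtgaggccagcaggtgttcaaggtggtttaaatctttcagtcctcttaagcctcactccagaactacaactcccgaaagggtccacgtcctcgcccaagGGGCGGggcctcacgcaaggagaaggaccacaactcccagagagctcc

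A promoter was found for 69 of the 83 members, as 300 bases from 250 before to 50 after the start. The NRF1 letters were in 17 of these genes, or 24.6%, against 11.85% of genes above background and 5.19% of all 27025 genes with a promoter. The ETS letters were also in 17 members, or 24.6%, against 20.8% of genes above background and 9.93% of all genes. YY1 letters were in 10 members, or 14.5%, against 5.41% and 3.19%. These include Atp5pb and Ndufa3, where the letters end past the 250 printed bases and are not in capitals above. Sp1 letters were in 28 members, or 40.6%, against 66.1% and 38.2%. TATAAA was in 8 members, or 11.6%, against 9.5% and 15.7%, and TCAAGGTCA, the ERR letters, in Atp5g3 and Sdhd. The median GC content of the members' windows was 57.3%, against 60.3% in genes above background and 52.8% in all. Motifs may overlap each other, and a match is a description of the letters, not of binding. With Oxymatrine, the 17 members with NRF1 letters had a median difference of 0, with 7 lower and 7 higher, and the 49 members above background without them had -0.05, with 33 lower and 10 higher. With Astragaloside IV the same groups had 9 lower and 3 higher with the letters, and 25 lower and 13 higher without, with medians of -0.00 and -0.01. For ETS letters the median with Oxymatrine was -0.02 in the 17 members that hold them and -0.05 in the other members. For Sp1 letters these medians were -0.05 and -0.03, and for YY1 letters -0.05 and -0.03. With Astragaloside IV they were -0.01 and 0 for ETS, -0.04 and 0 for Sp1, and 0 and -0.00 for YY1. None of these differences was tested.

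With Oxymatrine the members lay slightly lower than control: 47 of the 77 were lower, 19 higher and 11 equal, with a median difference of -0.03 and a mean of -0.10. Over all 10671 genes above background 46% were lower, 29.7% were higher and 24.4% were equal to control, with a median of 0 and a mean of -0.04. The direction depends on the scaling, since the median level of all genes above background differed by -0.05 from control in this array and by -0.02 in the Astragaloside IV array; counts of lower and higher genes in every list here are open to the same shift. After each array was centred on that median, 36 members were lower and 41 higher (median 0.02), or 46.8% and 53.2% against 36.4% and 63.6% of all genes. After quantile normalisation 37 were lower and 40 higher (median 0.01), or 48.1% and 51.9% against 42.3% and 57.3%. A single member above background passed 1.5-fold, Sdha, beside 3.31% of all genes either way and 2.01% in the lower direction. Without the background filter Cox6b2 passed as well, beside 4.77% of all 19505 genes. At 2-fold there was no member above background, beside 0.281% of genes.

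With Astragaloside IV the members stayed near control: 39 were lower, 19 higher and 19 equal, with a median difference that rounds to 0 and a mean of -0.04, while of all genes past the background level 40.8% were lower, 31.4% higher and 27.7% equal. After centring, 30 were lower and 47 higher, or 39.0% and 61.0%, against 35.4% and 64.5% of all genes. After quantile normalisation the counts were 31 and 45, or 40.3% and 58.4%, against 38.4% and 61.0%. These shares of members are near those over the array. No member passed 1.5-fold, beside 2.13% of all genes, or 2-fold, beside 0.197%. In 55 of the 77 the difference was under 0.1, or 71.4% against 60.0% of all genes. With Oxymatrine it was under 0.1 in 41 of the 77, or 53.2% against 54.0% of all genes, so that share was close to the one over the whole array. The shares over all genes, here and elsewhere, are not matched for level. With Astragaloside IV the SD of differences over genes of similar level was 0.08 for Cox7c (mean 17.30) and 0.27 for Cox7a1 (mean 5.79). Many members are bright, and whether level accounts for the shares of members was not tested. Both comparisons use the same control array, so they do not stand for separate evidence.

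**Figure D1:**
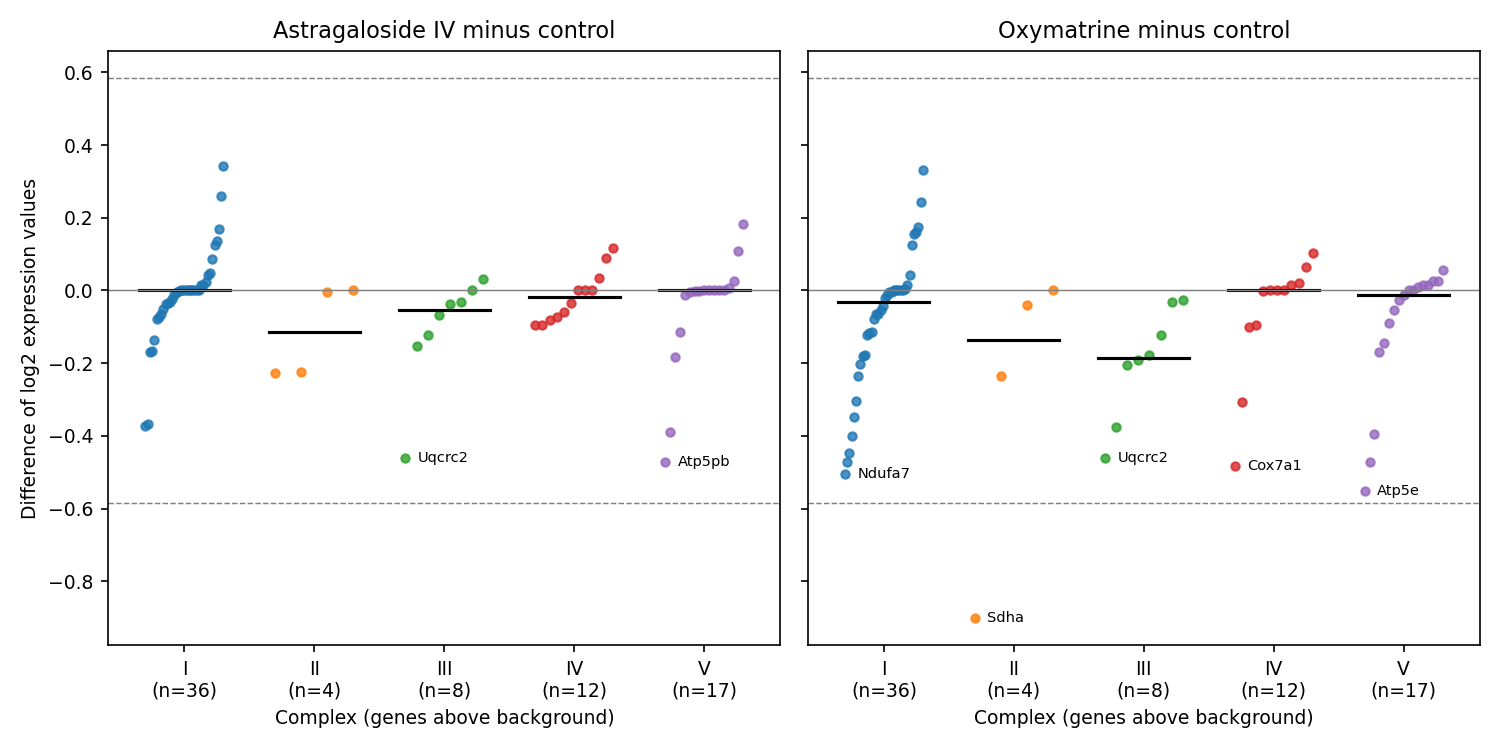
Differences of log2 expression values from the control array (vertical axis) for the 77 members above background, in order of size within complexes I to V, with Astragaloside IV on the left and Oxymatrine on the right. Points are genes, black bars medians over genes and dashed lines 1.5-fold; the lowest gene of a complex is named where it lies under -0.45, and Sdha at -0.90 with Oxymatrine is the only point past a dashed line.

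**Figure D2:**
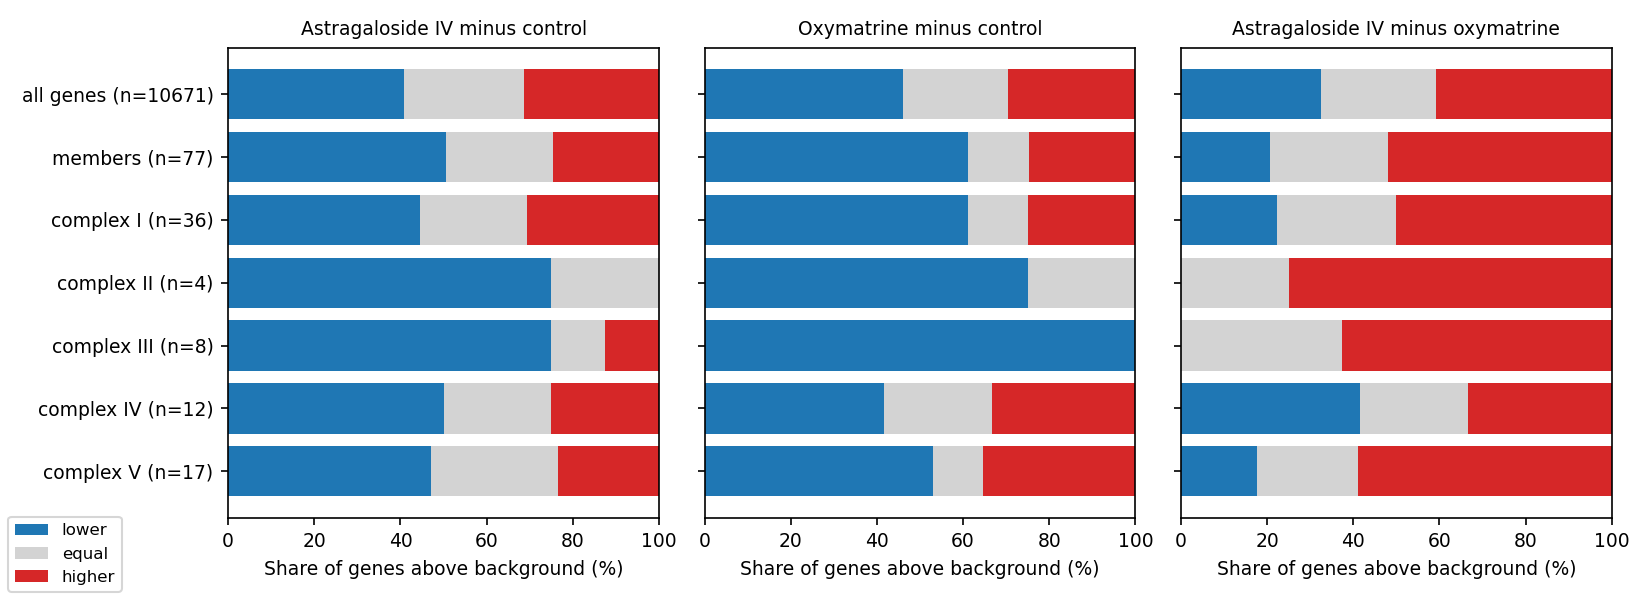
Share of genes above background (horizontal axis, percent) that were lower, equal or higher in the first-named array, for all genes, all members and each complex. With Oxymatrine all 8 complex III genes were lower, while complex IV had 5 lower and 4 higher; shares of lower and higher change with the scaling as given in the text.

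Complex II, succinate dehydrogenase, is the link between the tricarboxylic acid cycle and the chain. Sdha, the flavoprotein that oxidises succinate, was at 10.18 (control), 9.95 (Astragaloside IV) and 9.28 (Oxymatrine). The Oxymatrine array alone is far from the others. Its difference from control was -0.90, or 1.87-fold lower, and ranked 37 from the lowest of 10671 genes. The SD of this difference over genes of similar level was 0.20, which describes genes and is no replicate error. With Astragaloside IV Sdha differed by -0.23. Sdhb, the iron-sulphur subunit that takes the electrons from Sdha, was at 13.78, 13.56 and 13.55 in control, Astragaloside IV and Oxymatrine, so the treated arrays were alike. The membrane anchors differed little, as Sdhc was at 9.19 in each array and Sdhd at 12.69, 12.69 and 12.65. The 4 complex II genes thus had 3 lower and 1 equal in each comparison with control, and after centring 2 were lower and 2 higher.

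Complex III, the cytochrome bc1 complex, was the complex in which lower values were most uniform with Oxymatrine: all 8 genes were lower, between -0.03 and -0.46, with a median of -0.18. After centring 6 of 8 were lower and the median was -0.13, and after quantile normalisation 7 of 8 and -0.14, while none passed 1.5-fold. The core protein gene Uqcrc2 was at 10.09 (control), 9.63 (Astragaloside IV) and 9.63 (Oxymatrine). Both treated values are the same, at -0.46 from control, a tie of the kind counted above. Uqcrc1, the other core protein, was at 11.73, 11.66 and 11.54 in the same order. Uqcr10, a small membrane subunit, was at 10.01, 10.04 and 9.64, so only the Oxymatrine array was low. The Rieske iron-sulphur protein gene Uqcrfs1, which passes electrons to cytochrome c1, differed by -0.12 in both treated arrays. Uqcrb differed by -0.21 with Oxymatrine, Uqcrq by -0.18, the hinge protein gene Uqcrh by -0.03 and Uqcr11 by -0.03. With Astragaloside IV 6 of the 8 were lower, Uqcr10 was higher by 0.03 and Uqcr11 equal, with a median of -0.05. Cyc1, which encodes cytochrome c1 and lies outside the symbol rule, was at 8.82, 8.82 and 8.52.

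Complex I, NADH dehydrogenase, has catalytic core subunits surrounded by accessory ones. It had 36 genes above background. With Oxymatrine 22 were lower, 9 were higher and 5 were equal to control, with a median of -0.03, and with Astragaloside IV 16 were lower, 11 were higher and 9 were equal to control, with a median of 0. After centring 17 were lower and 19 higher with Oxymatrine and 12 and 24 with Astragaloside IV. In the core that oxidises NADH, Ndufv2, an iron-sulphur subunit, was at 13.37 (control), 13.23 (Astragaloside IV) and 12.89 (Oxymatrine). Ndufv1, which binds NADH and flavin, was at 12.32, 12.49 and 12.20, higher than control in the first treated array and lower in the second. Ndufs1 was at 10.04, 10.04 and 10.05. These neighbours in the same module therefore did not share a direction. In the core on the ubiquinone side, Ndufs3 was at 13.32, 13.30 and 13.50, Ndufs7 differed by -0.04 with each compound, and Ndufs8 by -0.01 and -0.02.

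The accessory subunits of complex I spread both ways. Ndufa7 was at 7.87 (control), 7.87 (Astragaloside IV) and 7.37 (Oxymatrine), low in the last array only. Ndufa2 was at 11.59, 11.22 and 11.15, and Ndufa10 at 12.16, 11.79 and 11.81, both low in each treated array. Ndufb3 differed by -0.40 with Oxymatrine and -0.17 with Astragaloside IV, Ndufc2 by -0.31 and 0.01, Ndufs4 by -0.23 and 0, and Ndufa9 by -0.20 and 0.09. On the higher side, Ndufa3 was at 13.84, 14.10 and 14.17, and Ndufb11 at 8.88, 9.22 and 9.12. Both were above control in each treated array, by 0.26 and 0.33 for Ndufa3 and by 0.34 and 0.24 for Ndufb11. Ndufc1 was higher by 0.14 and 0.16 and Ndufb5 by 0.12 and 0.12. Ndufa1, Ndufb8, Ndufs5, Ndufs6 and Ndufv3 were equal in all 3 arrays. Ndufb4 and its relative Ndufb4b differed by -0.07 and -0.08 with each compound, and their probe sets may not tell the genes apart. Ndufa4, which carries a complex I symbol but is now counted as a complex IV subunit, was at 13.87, 13.84 and 13.69.

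Complex IV, cytochrome c oxidase, passes the electrons to oxygen. Its 10 ubiquitous subunits differed from control by between -0.10 and 0.12 with Astragaloside IV and between -0.10 and 0.10 with Oxymatrine, with 5 lower and 2 higher in the first and 3 lower and 4 higher in the second. Cox4i1 was at 13.22 and Cox6b1 at 14.11 in each array, and Cox5b was higher by 0.12 and 0.10. Cox7a2l, described as a factor that joins complexes III and IV into supercomplexes, was at 12.97, 12.87 and 12.66. Which form of this protein the mice carry was not examined. Over its 12 genes above background, complex IV had 6 lower and 3 higher with Astragaloside IV and 5 lower and 4 higher with Oxymatrine, and medians of -0.02 and 0.

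The isoforms of complex IV that belong to other tissues were dim. Cox7a1, the heart and muscle form, was the only 1 of 6 above background, at 5.93 (control), 6.02 (Astragaloside IV) and 5.44 (Oxymatrine), all close to the background level. Its counterpart Cox7a2 was at 11.95, 11.85 and 11.85. Cox6b2, the testis form, was at 4.01, 4.01 and 5.05, below background in every array, so its difference of 1.03 is between values that are not above background. Cox4i2, Cox7b2, Cox8b and Cox8c stayed between 3.21 and 4.99, and Ndufa4l2, the hypoxia-induced relative of Ndufa4, between 3.66 and 3.79. Cox6a2, outside the symbol rule and here a marker of plasmacytoid dendritic cells, was above background at 9.21, 9.00 and 9.18, and Cox6a1, the form found in most tissues, at 15.44, 15.36 and 15.46.

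ATP synthase has a catalytic head, F1, a peripheral stalk that holds it still and a rotating membrane ring of c subunits. It had 17 genes above background. With Oxymatrine 9 were lower, 6 were higher and 2 were equal to control, and with Astragaloside IV 8 were lower, 4 were higher and 5 were equal to control, with medians of -0.01 and 0. After centring 7 were lower and 10 higher with Oxymatrine and 4 and 13 with Astragaloside IV. In F1, Atp5e, the epsilon subunit, was at 10.72 (control), 10.33 (Astragaloside IV) and 10.17 (Oxymatrine). It was the member second to Sdha with Oxymatrine, at -0.55, and ranked 258 from the lowest of 10671 genes. The larger F1 subunits hardly differed: Atp5a1, the alpha subunit, by 0 and -0.09, Atp5b, the catalytic beta subunit, by -0.01 and -0.01, the gamma subunit gene Atp5c1 by 0 and 0, and the delta subunit gene Atp5d by 0 and -0.03.

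In the peripheral stalk, Atp5pb, the b subunit, was at 13.44 in control and 12.97 in both treated arrays, again a tie. This difference of -0.47 was the lowest of the members above background with Astragaloside IV and ranked 263 from the lowest of 10671 genes. RefSeq lists a pseudogene named after Atp5pb, as it does for 9 members in all. Pseudogenes under other names were not looked for, and whether the probe set reads any was not tested. Atp5o, the oligomycin sensitivity protein, differed by -0.11 and -0.17, Atp5j by -0.01 and -0.05, and Atp5h by -0.00 and 0.01. The 3 genes for the c subunit, which encode the same mature protein with different import sequences, were close to control or above it: Atp5g1 differed by 0.11 and 0.02, Atp5g2 by -0.00 and 0.06, and Atp5g3 by 0.18 and 0.03. Among the other membrane subunits, Atp5md was at 15.91, 15.73 and 15.52, lower in each treated array, and Atp5j2 at 15.50, 15.50 and 15.35. Atp5k, Atp5l and Atp5mpl lay within 0.03 of control.

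**Figure D3:**
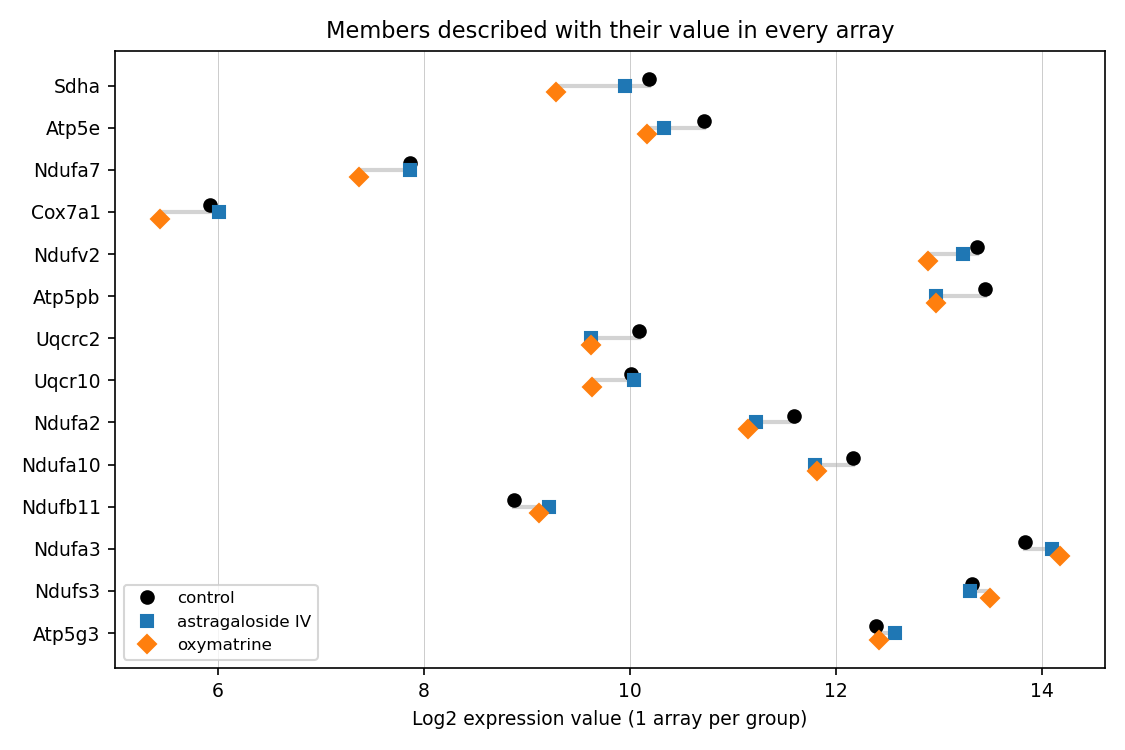
Log2 expression values (horizontal axis) of 14 members in the control (circle), Astragaloside IV (square) and Oxymatrine (diamond) arrays, 1 array per group and no error bars. Sdha, Ndufa7, Cox7a1, Ndufv2 and Uqcr10 have the Oxymatrine value apart from the other arrays. Atp5pb and Uqcrc2 have both treated values tied below control, and exact ties are common in these data. Levels of different genes are not comparable.

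Between the 2 treated arrays few members were far apart. The Astragaloside IV value was above the Oxymatrine value in 40 of 77, below it in 16 and equal in 21, with a median difference of 0.01, while 40.7% of all genes above background were higher, 32.5% were lower and 26.7% were equal. After centring 31 were higher and 46 lower, so the direction of this count depends on the scaling. Of the members 59.7% were then lower and 40.3% higher, against 65.1% and 34.8% of all genes. Sdha was the only member past 1.5-fold, with a difference of 0.67, beside 2.58% of all genes either way, and none passed 2-fold, beside 0.159%. Without the background filter Cox6b2 passed 1.5-fold too, beside 4.24% of all named genes. Cox7a1 differed by 0.57 near background, Ndufa7 by 0.50, Uqcr10 by 0.41 and Ndufv2 by 0.34. After quantile normalisation Cox7a1 passed 1.5-fold as well, at 0.60. At the other end Ndufs3 differed by -0.20, Cox5a by -0.12, Ndufa5 by -0.11 and Cox6a1 by -0.09.

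Genes that build or feed the chain were taken from lists written from textbook knowledge. Their counts, here and below, stand beside 46% of all genes lower and 29.7% higher with Oxymatrine. With Astragaloside IV these shares were 40.8% and 31.4%. The lists were not counted after centring. Of 52 assembly factors above background, lower values were in 25, higher in 16 and equal in 11 with Oxymatrine, and with Astragaloside IV 19 were lower, 21 were higher and 12 were equal to control, with medians of 0. In each comparison 1 of the 52 passed 1.5-fold, beside 2.13% of all genes with Astragaloside IV and 3.31% with Oxymatrine. It was Ecsit, a complex I assembly factor that also acts in toll-like receptor signalling, at 7.64 (control), 7.02 (Astragaloside IV) and 6.96 (Oxymatrine). Ndufaf4, another complex I factor, was higher with Oxymatrine by 0.47, and Nubpl with Astragaloside IV by 0.19. For complex II, the 3 factors above background were lower with Oxymatrine: Sdhaf2, which attaches the flavin to Sdha, by a difference of -0.31, Sdhaf1 by -0.28 and Sdhaf3 by -0.28. With Astragaloside IV Sdhaf1 differed by -0.30 and Sdhaf2 by 0.00. For complex III, Uqcc1 differed by -0.37 with each compound, and Uqcc3 by 0.34 with Astragaloside IV and 0.10 with Oxymatrine. For complex IV, Lrpprc differed by -0.39 and Cmc2 by 0.54 with Astragaloside IV, and Pet100 by -0.33 and Cox10 by 0.33 with Oxymatrine. For complex V, Tmem70 differed by -0.21 and Atpaf2 by 0.18 with Astragaloside IV, and Tmem242 by -0.24 and Atpaf2 by 0.36 with Oxymatrine.

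Coenzyme Q synthesis genes, which make the carrier between complexes I, II and III, had 7 of 12 lower and 3 higher with Oxymatrine, with a median of -0.05. Coq4 was at 6.62, 6.38 and 5.99 and Coq10a at 7.35, 7.40 and 6.72 in control, Astragaloside IV and Oxymatrine. Both passed 1.5-fold with Oxymatrine, 2 of 12 beside 2.01% of all genes in the lower direction, and Coq5 was the highest, at 0.13. With Astragaloside IV 3 were lower and 4 higher, from Coq4 at -0.24 to Coq8a at 0.33. Of the electron feeders and cytochrome c, Dhodh, which passes electrons to ubiquinone in pyrimidine synthesis, was at 7.85, 7.48 and 8.22, lower than control in the first treated array and higher in the second. Etfa differed by -0.19 with Oxymatrine and the cytochrome c gene Cycs by 0.05 with Astragaloside IV.

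The tricarboxylic acid cycle had 13 genes above background and medians of 0 in both comparisons. Idh2, the NADP-dependent isocitrate dehydrogenase, was at 9.90, 10.02 and 10.46, Suclg1 differed by -0.28 and -0.22 and Mdh2 by 0.23 and 0.03, while the citrate synthase gene Cs was at 13.99 in each array. Mitochondrial ribosomal protein genes are needed to translate the subunits encoded by mitochondrial DNA. With Oxymatrine 39 of 74 were lower and 22 higher, beside 46% and 29.7% of all genes. With Astragaloside IV 27 were lower and 24 higher, beside 40.8% and 31.4%. The medians were -0.01 with Oxymatrine and 0 with Astragaloside IV. Mrpl43 was at 9.27, 8.35 and 8.33, and Mrps26 was higher with Oxymatrine by 0.31 and Mrps25 with Astragaloside IV by 0.60. Of 22 protein import genes 12 were lower and 5 higher with Oxymatrine and 7 were lower and 6 higher with Astragaloside IV. The motor anchor gene Timm44 was at 11.02, 10.47 and 10.33, Timm10b differed by -0.71 with Oxymatrine, and Timm50 was higher by 0.36 and 0.39. Of the inner membrane carriers, Slc25a3, which brings in phosphate for ATP synthase, was at 15.72, 15.49 and 15.49, with 6 of 10 lower with Oxymatrine and 2 with Astragaloside IV. Slc25a20 was the highest with Astragaloside IV, at 0.07, and Slc25a1 with Oxymatrine, at 0.10.

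The list written for regulators of mitochondrial biogenesis had 11 genes above background. It includes Nfe2l1, a gene distinct from Nrf1. With Oxymatrine 3 were lower, 3 were higher and 5 were equal to control, and with Astragaloside IV 5 were lower, 1 was higher and 5 were equal to control. Nrf1 was at 9.60 (control), 9.45 (Astragaloside IV) and 9.41 (Oxymatrine), while Gabpa was at 11.57 and Yy1 at 12.10 in each array. Tfam, the packaging factor of mitochondrial DNA, was at 8.48, 8.48 and 8.50. Ppargc1a was at 5.74 and Ppargc1b at 6.29 in each array. Pprc1 differed by -0.14 with each compound, Gabpb1 by -0.04 and 0, Nfe2l1 by -0.02 and 0.13, Tfb1m by 0.01 and -0.30, and Tfb2m by -0.37 and 0.00. Polrmt was not above background.

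**Figure D4:**
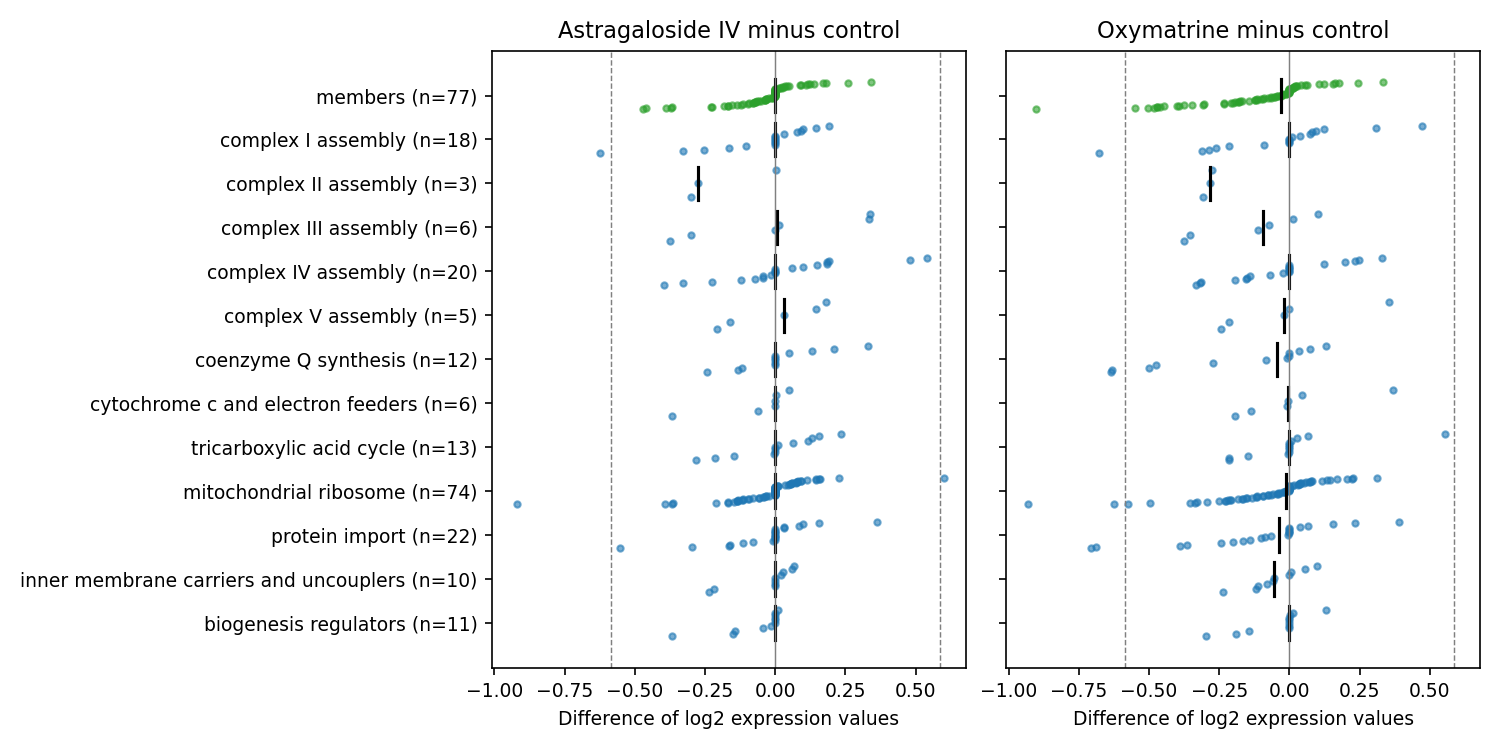
Differences of log2 expression values from control (horizontal axis) for the members and 12 lists of mitochondrial genes, genes above background only, with Astragaloside IV on the left and Oxymatrine on the right. Points are genes, black bars medians over genes and dashed lines 1.5-fold; medians lie within 0.1 of 0 except for the 3 complex II assembly genes, at -0.28 and -0.28.

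Other measures differed beside the lower values of the Oxymatrine array. The 1324 probe sets named as positive controls differed from the control array by a mean of -0.13 in this array and -0.04 with Astragaloside IV, and the 5222 named as negative controls by 0.15 and 0.16. Of 6 type 1 conventional dendritic cell markers above background, the Oxymatrine array had 5 lower and 1 higher than control, with a median of -0.31. The Astragaloside IV array had 4 lower, 1 higher and 1 equal, with a median of -0.15. Of all genes above background 46% and 40.8% were lower in these arrays, in that order. Itgae and Gcsam differed more in the Astragaloside IV array (-0.73 and -0.61) than in the Oxymatrine array (-0.49 and -0.45). Tlr3 was higher in both, by 0.53 and 0.10 in the same order. The log2 of the summed level of all 8 measured, led by Cadm1, was 12.20 (control), 12.22 (Astragaloside IV) and 11.99 (Oxymatrine). Their mean log2 level was 7.08, 6.93 and 6.84. The log2 of the summed level was 16.58, 16.52 and 16.50 for the plasmacytoid dendritic cell markers. For type 2 conventional dendritic cells it was 15.80, 15.77 and 15.84, and for monocytes and macrophages 15.86, 15.85 and 15.86. It was 13.45, 12.95 and 13.20 for neutrophil markers, led by Lcn2, 9.02, 8.49 and 8.54 for T and NK cell markers, 6.78, 6.77 and 6.81 for B cell markers and 14.02, 13.60 and 13.91 for the erythroid list, which is nearly all Car2. The part of these in the results was not tested.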

How the data were processed

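RNA was measured with a whole-transcript array in 3 samples, 1 per group. The values are log2 expression values made by the authors with RMA, per the submitters' processing notes, and deposited as 1 value per probe set and array; the log base was read from their range, 1.78 to 19.7. RMA equalises arrays by quantiles and fits probes by median polish, which gives exact ties with 3 arrays. For software and version, the sources used here name none. Precision is limited by the number of arrays.

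Of 28846 probe sets, 19572 had 1 gene symbol in the platform's 2019 annotation, 0 had several and 9274 had none. Where a gene had more probe sets (55 genes, no member), the brightest on average was kept. All 83 members were found in RefSeq by Entrez identifier. The members, lists, markers and thresholds were chosen with earlier results of these data known. Each comparison is a difference of 2 log2 values, and no test was run. Members were named as the 4 lowest and 4 highest differences in each comparison, all of complex II, core subunits of complex I and paralogs; other members were described after their values were seen. From each list the lowest and highest gene per comparison with control were named, with all biogenesis regulators; a few list genes, such as Cs, were added after their values were seen. The promoters printed, the roles and the symbols of each list were set, and the list of subunits outside the symbol rule was added, after the values were seen. SDs over genes of similar level come from 20 bins of equal size. Alternatives were other level filters, centring, quantile normalisation, averaging over probe sets, other thresholds, means and sets of members. Calculations were tested on simulated data. Protein sequences were not used here. Tools were numpy 2.4.6, pandas 2.3.3 and matplotlib 3.10.9 under Python 3.11.15.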

Additional observations from a re-analysis of the deposited data

How the results depend on the processing

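With 1 array per group no result has a test, and no replicate could be left out. No paired analysis was possible because each group holds 1 sample. Centring on the array median and quantile normalisation turn exact ties into small differences. Against control, centring gave 47 members higher with Astragaloside IV and 41 with Oxymatrine, quantile normalisation 45 and 40, and the median difference of members between Oxymatrine and control became 0.0204 after centring. ATP synthase had 4 genes lower with Astragaloside IV under each. Between the treated arrays, 46 members were lower after centring (21 of complex I, 2 of II, 5 of III, 9 of IV and 9 of V). After quantile normalisation 40 were lower (20 of complex I, 2 of II, 4 of III, 7 of IV and 7 of V). As a mean over members, the difference was -0.10 for Oxymatrine and 0.06905 between the treated arrays.

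Counting differences of at least 0.1, 14 members were lower and 8 higher with Astragaloside IV. The lower ones were 5 of complex I, 2 of II, 3 of III, 0 of IV and 4 of V. With Oxymatrine 29 were lower and 7 higher. Here the lower ones were 13 of complex I, 2 of II, 6 of III, 3 of IV and 5 of V. Between the treated arrays 3 were lower (2 of complex I, 0 of II, 0 of III, 1 of IV, 0 of V) and 20 higher. At this size 18.2% of members and 23.4% of all genes were lower with Astragaloside IV. These shares were 37.7% and 29.2% with Oxymatrine, and 3.90% and 17.3% between the treated arrays. The shares higher were 10.4% of members and 16.6% of all genes with Astragaloside IV. They were 9.1% and 16.8% with Oxymatrine, and 26.0% and 22.65% between the treated arrays. Members past the threshold, 1 each with Oxymatrine and between the treated arrays, became 2 each with no level filter, 0 each at 2-fold and 0 each without Sdha, and 2 between the treated arrays after quantile normalisation. Without Cox7a2l and the isoforms of other tissues, 3 complex IV genes were lower with Oxymatrine. Leaving out Sdha and leaving out Ndufb4b were chosen after seeing the data. Of these counts and medians under the alternatives, 44 moved and 205 stayed within 1.5 times (counts) or 0.05 (medians) of the main ones. The 205 include averaging over probe sets, which could change no member because each has 1 probe set. A median can also stay by this rule and change sign. With Oxymatrine it went from -0.03 to 0.007 after quantile normalisation.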
